A study of Homo sapiens with 9 samples.

Results

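The 9 genes described here encode 3 matrix metalloproteases (MMP1, MMP3 and MMP14), 3 tissue inhibitors of metalloproteases (TIMP1, TIMP2 and TIMP3) and 3 genes of the plasminogen activation system (PLAU, PLAUR and PLAT). They were taken by symbol from the 58395 Ensembl identifiers of an RNA-seq experiment, and all 9 were among the 16761 genes that passed the low-count filter. The cells were MDA-MB-231, a human triple-negative breast cancer line of mesenchymal character. They were reverse transfected with a non-targeting control siRNA (siNC) or with one of a pair of individual siRNAs against the zinc transporter ZIP7, siZIP7_1 or siZIP7_2, and RNA was taken 96 h later. Each siRNA had 3 libraries, 9 in all, with between 24153785 and 30454419 reads counted on genes per library. All groups share the line, the DMEM medium and the transfection, and the labels name no agent other than the siRNAs. The labels number the libraries of a group but do not say that they came from separate cultures, so p-values measure the spread between these samples, which may be technical.

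Matrix metalloproteases are zinc-dependent enzymes that cut collagens, proteoglycans and other parts of the extracellular matrix. Most are made as inactive proenzymes, and TIMP proteins bind their active site. The plasminogen system feeds into the same process, since urokinase (PLAU), held at the cell surface by its receptor (PLAUR), and tissue plasminogen activator (PLAT) turn plasminogen into plasmin, which degrades fibrin and can activate several pro-MMPs. In breast cancer cells both systems are best known for their part in invasion.

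Several MMP, TIMP and PLAU family promoters are textbook targets of AP-1 and ETS transcription factors, so the 250 bases before the RefSeq start sites of the 9 genes were searched for the AP-1 heptamer TGAGTCA and the ETS word AGGAAG on both strands. RefSeq promoter windows (GRCh38.p14) were matched for 5 of the 9 genes, MMP14, TIMP1, TIMP3, PLAU and PLAUR, with 6 windows in all because PLAU has a pair. MMP1, MMP3, TIMP2 and PLAT had no matched window. The 4 matches are shown with the bases around them, 30 bases each, written 5′ to 3′ on the strand of the gene with the match in capitals.
PLAUR, AP-1 heptamer, chr19:43670337-43670366, minus strand: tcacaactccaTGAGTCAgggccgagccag
PLAUR, ETS word on the opposite strand, chr19:43670170-43670199, minus strand: ccacaaaactgcctcCTTCCTgaggccaga
TIMP1, ETS word, chrX:47582337-47582366, plus strand: agtaatgcatccAGGAAGcctggaggcctg
PLAU, ETS word, chr10:73910899-73910928, plus strand: caggtgcatgggAGGAAGcacggagaattt

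The AP-1 heptamer thus stood in 1 of 6 windows, that of PLAUR, where its last base lay 180 bases before the RefSeq start. Over 35116 RefSeq windows, 4.20% held it in the same 250 bases. The ETS word stood in 3 of 6 windows, against 28.7% of all windows. The windows of MMP14 and TIMP3 held neither word. The GENCODE gene spans given below begin further upstream for PLAUR, TIMP1 and PLAU, so the matches lie before the RefSeq starts but inside those spans. These matches describe the letters only, and no measure of factor binding was made in these samples.

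The targeted gene was examined first. SLC39A7, which encodes ZIP7, was counted at 321, 343 and 322 CPM in the siNC libraries, 35.4, 32.9 and 38.6 CPM in the siZIP7_1 libraries and 20.5, 19.5 and 17.6 CPM in the siZIP7_2 libraries. CPM is the read count divided by the library's TMM-scaled size, on a common scale. SLC39A7 was 9.21-fold lower with siZIP7_1 and 17.1-fold lower with siZIP7_2 than with siNC, and the groups did not overlap. The libraries therefore fit their labels at the targeted gene. The line was checked by its markers as well. VIM, the intermediate filament of mesenchymal cells, was between 5333 and 5688 CPM in the siNC libraries, while CDH1 (E-cadherin) was at most 0.605 CPM and ESR1 (estrogen receptor) at most 0.109 CPM in them. PGR, the progesterone receptor, had no reads in the siNC libraries. ERBB2 (HER2) was at 71.7 to 75.6 CPM in them, so its RNA was present, and no level that defines a negative line was set here. Other markers went against a plain split, since the luminal keratins KRT8 (204 ± 2.23 CPM, SD, n = 3) and KRT18 (247 ± 10.1 CPM) were well expressed with siNC, GATA3 averaged 15.8 CPM, and the mesenchymal gene SPARC was at 0.301 to 0.641 CPM.

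With siZIP7_1, 2 of the 9 genes rose and 6 fell against siNC at an adjusted p under 0.05 (edgeR quasi-likelihood test, Benjamini-Hochberg adjustment over all tested genes, the test behind every adjusted p given here). With siZIP7_2, 7 rose and 2 fell. Between the 2 ZIP7 siRNAs, 8 genes were higher with siZIP7_2 and 1, TIMP2, was higher with siZIP7_1. These counts stand beside a transcriptome in which most genes were called. With siZIP7_1, 70.7% of all tested genes passed, 34.8% higher and 35.9% lower. With siZIP7_2, 77.8% passed, 38.5% higher and 39.3% lower. Between the ZIP7 siRNAs 78.7% passed, 38.1% higher with siZIP7_2 and 40.6% lower. Opposite directions were also common: 4 of the 9 genes (MMP14, TIMP1, PLAUR and PLAT) fell with siZIP7_1, rose with siZIP7_2 and differed between them, and 18.7% of all tested genes passed in opposite directions in this way, in either order. Passing the test therefore sets no gene apart here, and sizes are given throughout. The median size of the log2 fold change over the 9 genes, whatever its sign, was 1.59 with siZIP7_1 and 1.97 with siZIP7_2, against 0.478 and 0.585 over all tested genes. Between the ZIP7 siRNAs it was 2.72, against 0.605. For the 60 other protease, inhibitor and factor genes tested, the median size was 0.861 with siZIP7_1, 0.911 with siZIP7_2 and 1.22 between them. For the 10 other matrix metalloproteases tested it was 1.53, 1.22 and 1.97 in that order. The 9 genes and the lists were chosen with earlier results of these data known, so no conclusion is drawn from these medians. The siNC libraries are shared by both comparisons against siNC. In bulk RNA, fewer cells of a kind and less RNA per cell cannot be told apart, and with a single control siRNA, loss of ZIP7 and other actions of an siRNA cannot be told apart.

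**Figure D1:**
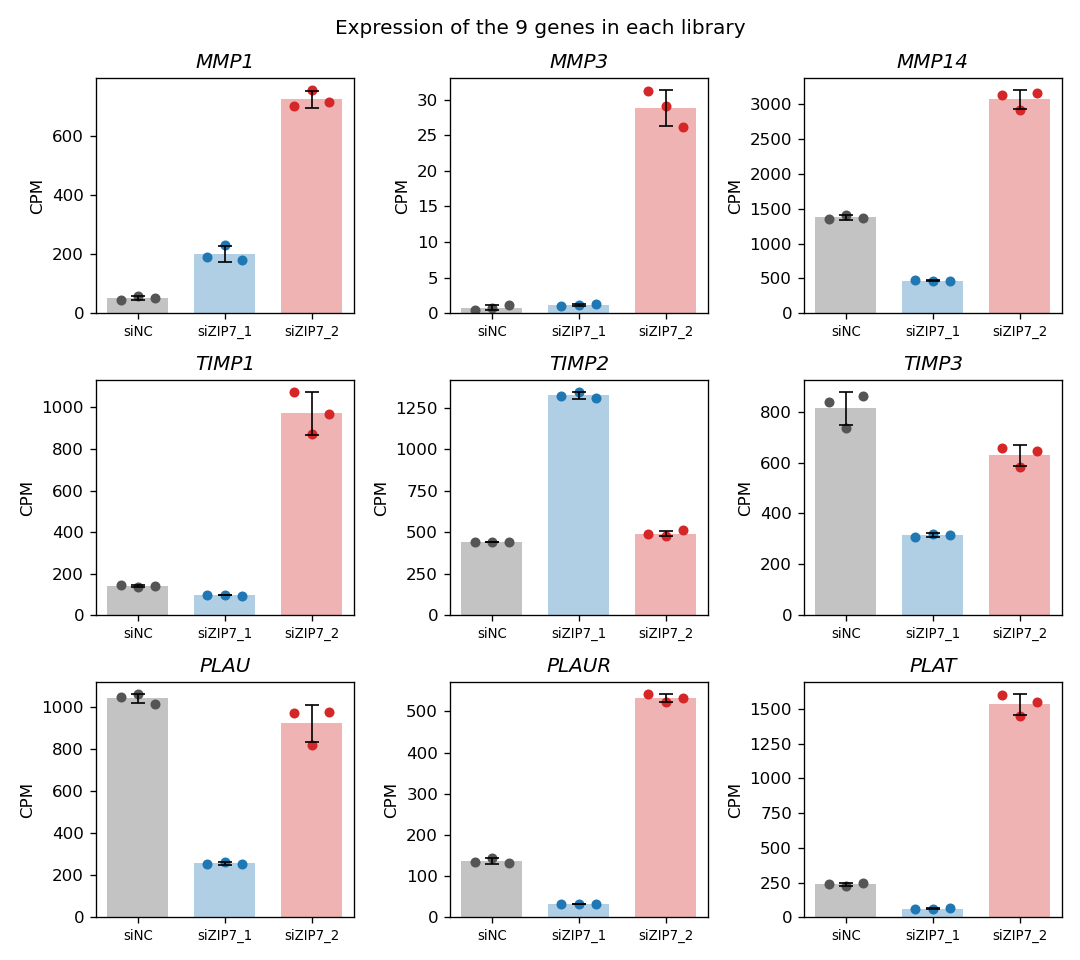
Expression of the 9 genes in CPM (linear axes that start at 0) in each library of the siNC, siZIP7_1 and siZIP7_2 groups. Points are libraries, bars the mean of 3 libraries and error lines 1 SD. MMP1 climbs from siNC through siZIP7_1 to siZIP7_2, TIMP2 is highest with siZIP7_1, and MMP14, PLAUR and PLAT are lowest with siZIP7_1 and highest with siZIP7_2.

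Among the proteases, MMP1 was the member that rose with both siRNAs by several-fold. MMP1, the interstitial collagenase that cuts fibrillar collagen, lies on chromosome 11 (11:102789920-102798160, minus strand, GRCh38 as in GENCODE 29, 10 merged exons). It stood at 45.9, 57.7 and 50.0 CPM in the siNC libraries, 189.9, 231 and 179 CPM with siZIP7_1 and 701, 755 and 714 CPM with siZIP7_2. The 3 groups were fully separated, in that order. MMP1 was 3.92-fold higher with siZIP7_1 (log2 1.97 ± 0.076 SE, adjusted p = 1.67e-19, edgeR) and 14.2-fold higher with siZIP7_2 (log2 3.82 ± 0.079 SE, adjusted p = 1.15e-25, edgeR). The difference between the siRNAs was 3.61-fold (adjusted p = 7.31e-20, edgeR).

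MMP3, or stromelysin-1, cuts proteoglycans and can activate proMMP1. It is the neighbour of MMP1 (11:102835801-102843803, minus strand). With siNC it was at a low level, 0.472, 0.773 and 1.17 CPM, from 13, 18 and 33 reads. With siZIP7_1 it was at 1.06, 1.13 and 1.29 CPM, which overlapped siNC, and its log2 fold change of 0.52 ± 0.26 SE did not pass (adjusted p = 0.071, edgeR). Without siNC replicate 3 that value was 0.94 and passed (adjusted p = 0.0055, edgeR), so this call rested on 1 library. With siZIP7_2 it stood at 31.2, 29.2 and 26.1 CPM, from 805, 887 and 680 reads, and did not overlap the other groups. MMP3 was 35.6-fold higher than siNC by its summed reads (95% exact counting interval 27.8 to 46.4) and 24.8-fold higher than siZIP7_1 (20.3 to 30.5). These intervals cover counting error only. The fitted log2 fold change against siNC was 5.15 ± 0.15 SE, larger in size than that of 99.6% of tested genes.

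MMP14, a membrane-anchored metalloprotease that activates proMMP2 at the cell surface, went in opposite directions. It lies on chromosome 14 (14:22836557-22849027, plus strand, 12 merged exons). Its levels were 1348, 1413 and 1374 CPM with siNC, 471, 466 and 464 CPM with siZIP7_1 and 3140.1, 2918 and 3170.3 CPM with siZIP7_2. No group overlapped another. MMP14 fell 2.95-fold with siZIP7_1 (log2 -1.56 ± 0.049 SE, adjusted p = 1.45e-21, edgeR) and rose 2.23-fold with siZIP7_2 (log2 1.16 ± 0.048 SE, adjusted p = 9.67e-19, edgeR). The contrast between the ZIP7 siRNAs was 6.59-fold (adjusted p = 3.93e-27, edgeR).

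MMP1 and MMP3 belong to a run of 9 MMP genes on chromosome 11 that spans 435 kb. The run was examined after the values of MMP1 and MMP3 were seen. Of its 9 genes 4 passed the low-count filter: MMP1, MMP3, MMP10 and MMP13. MMP10, or stromelysin-2, starts 17.5 kb from MMP1 and had 15 reads over the siNC libraries, 16 over siZIP7_1 and 284 over siZIP7_2. By summed reads it was 18.2-fold higher with siZIP7_2 than with siNC (95% exact counting interval 10.8 to 32.9), and with siZIP7_1 the ratio was 0.952 (0.441 to 2.07). No siNC library held more than 7 of its reads, and no siZIP7_1 library more than 9. MMP10 thus passed the low-count filter through siZIP7_2, which favours a rise there, and no support is drawn from that rise. MMP13, or collagenase-3, had 34, 8 and 85 reads in the same order of groups. MMP12, the macrophage elastase, had 0, 1 and 17 reads. The other 4 genes of the run, MMP7, MMP8, MMP20 and MMP27, had at most 5 reads in any group. The largest read sums of the run were thus those of MMP1 with siZIP7_2, at 59580, and of MMP1 with siZIP7_1, at 17662.

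The inhibitors moved separately from one another. TIMP1, a secreted inhibitor of most MMPs (X:47582313-47586789, plus strand, 6 merged exons), stood at 144, 136 and 139 CPM with siNC, 97.9, 99.2 and 95.0 CPM with siZIP7_1 and 1077, 872 and 967 CPM with siZIP7_2. The groups did not overlap. TIMP1 was 1.44-fold lower with siZIP7_1 (log2 -0.52 ± 0.059 SE, adjusted p = 5.59e-09, edgeR) and 6.95-fold higher with siZIP7_2 (log2 2.80 ± 0.06 SE, adjusted p = 2.32e-25, edgeR). Between the siRNAs it differed 9.98-fold.

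TIMP2, which takes part in proMMP2 activation by MMP14 as well as inhibiting MMPs, was highest with siZIP7_1. It lies on chromosome 17 (17:78852977-78925387, minus strand, 6 merged exons). Its levels were 440.4, 439.8 and 443 CPM with siNC, 1320.0, 1346 and 1306 CPM with siZIP7_1 and 487, 477 and 512 CPM with siZIP7_2. TIMP2 rose 3.00-fold with siZIP7_1 (log2 1.59 ± 0.046 SE, adjusted p = 2.68e-22, edgeR). With siZIP7_2 the libraries lay just above those of siNC, 1.12-fold higher (log2 0.16 ± 0.046 SE, adjusted p = 0.00269, edgeR). That small rise did not pass without the low-count filter, where it was 0.11 (adjusted p = 0.0555, edgeR).

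TIMP3 binds to the matrix and also inhibits ADAM and ADAMTS proteases. It lies on chromosome 22 (22:32801701-32863043, plus strand, 5 merged exons). It stood at 838, 737 and 862 CPM with siNC, 308, 321 and 316 CPM with siZIP7_1 and 657, 582 and 645 CPM with siZIP7_2. The lowest siNC library was above the highest of siZIP7_2. TIMP3 fell 2.58-fold with siZIP7_1 (log2 -1.37 ± 0.056 SE, adjusted p = 7.23e-19, edgeR) and 1.29-fold with siZIP7_2 (log2 -0.37 ± 0.055 SE, adjusted p = 5.37e-07, edgeR).

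**Figure D2:**
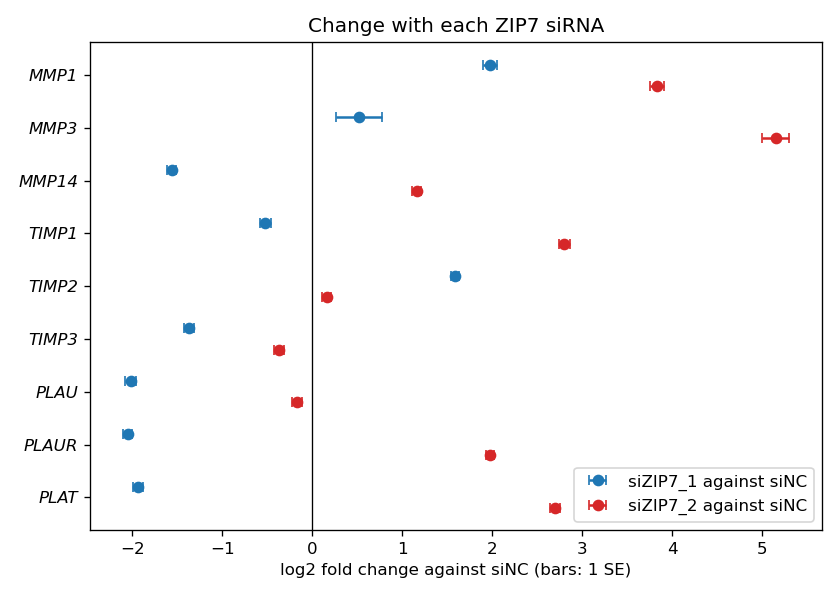
Log2 fold change against siNC of the 9 genes with siZIP7_1 (blue) and siZIP7_2 (red) from the edgeR fit, with bars of 1 SE. MMP14, TIMP1, PLAUR and PLAT lie on opposite sides of 0, MMP1 lies to the right with both siRNAs, and TIMP3 and PLAU lie to the left with both.

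The 3 genes of the urokinase system all fell with siZIP7_1. PLAU, the urokinase-type plasminogen activator (10:73909177-73917497, plus strand, 13 merged exons), stood at 1049, 1061 and 1017 CPM with siNC, 254, 265 and 252 CPM with siZIP7_1 and 973, 822 and 978 CPM with siZIP7_2. PLAU fell 4.05-fold with siZIP7_1 (log2 -2.02 ± 0.057 SE, adjusted p = 1.11e-22, edgeR). With siZIP7_2 all libraries lay under the siNC libraries, by 1.13-fold on average (log2 -0.17 ± 0.054 SE, adjusted p = 0.0052, edgeR). That small decrease did not pass without siZIP7_2 replicate 2, the lowest PLAU library of its group (log2 -0.09, adjusted p = 0.109, edgeR). Upper-quartile normalization, which shifted the median gene by 0.11 on the log2 scale in this comparison, gave PLAU a log2 value of -0.07 (adjusted p = 0.258, edgeR).

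PLAUR, the receptor that holds urokinase at the cell surface (19:43646095-43670547, minus strand, 10 merged exons), carried the AP-1 heptamer shown above. It stood at 133, 144 and 131 CPM with siNC, 32.6, 32.8 and 33.1 CPM with siZIP7_1 and 543, 524 and 533 CPM with siZIP7_2. The 3 groups were far apart and each was narrow. PLAUR fell 4.14-fold with siZIP7_1 (log2 -2.05 ± 0.052 SE, adjusted p = 1.04e-23, edgeR) and rose 3.92-fold with siZIP7_2 (log2 1.97 ± 0.047 SE, adjusted p = 3.10e-24, edgeR). The siRNAs differed 16.2-fold from each other.

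PLAT, the tissue-type plasminogen activator (8:42175233-42207724, minus strand, 16 merged exons), had the same order of groups. Its levels were 242, 224 and 245 CPM with siNC, 62.6, 59.3 and 64.3 CPM with siZIP7_1 and 1598, 1447 and 1551 CPM with siZIP7_2. PLAT fell 3.82-fold with siZIP7_1 (log2 -1.93 ± 0.055 SE, adjusted p = 1.27e-22, edgeR) and rose 6.46-fold with siZIP7_2 (log2 2.69 ± 0.053 SE, adjusted p = 4.79e-26, edgeR). The difference between the ZIP7 siRNAs was 24.7-fold, larger in size than that of 98.4% of tested genes.

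To compare levels between genes, CPM was divided by exonic length in kb. That length joins all annotated exons of a gene. It can exceed the length of the transcripts present, by an amount that differs between genes and was not measured. The orders, shares and ratios of different genes given below depend on it. With siNC the order of the mean levels was PLAU (353 CPM per kb), MMP14 (309), TIMP3 (177), TIMP1 (90.7), TIMP2 (78.3), PLAT (35.8), PLAUR (30.5), MMP1 (26.0) and MMP3 (0.394), and no neighbours in that order overlapped. With siZIP7_1 the first was TIMP2 (235 CPM per kb). MMP14 (105) and MMP1 (102) came next and overlapped, followed by PLAU (87.2), TIMP3 (68.5), TIMP1 (63.2), PLAT (9.38), PLAUR (7.36) and MMP3 (0.566). With siZIP7_2 MMP14 (689 CPM per kb) and TIMP1 (630) came first and overlapped. They were followed without overlap by MMP1 (367), PLAU (313), PLAT (232), TIMP3 (136), PLAUR (120), TIMP2 (87.3) and MMP3 (14.1). PLAU, first of the 9 with siNC, thus had 3 genes above it with either ZIP7 siRNA.

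The make-up of each family changed with it. Of the summed TIMP level per kb, TIMP3 made up 51.0% ± 1.76 (SD, n = 3) with siNC. TIMP2 made up 64.1% ± 0.109 (SD, n = 3) with siZIP7_1, and TIMP1 made up 73.7% ± 1.36 (SD, n = 3) with siZIP7_2. Each of the 3 groups thus had a different leading TIMP. The TIMP sum was 346 ± 16.8 CPM per kb with siNC, 367 ± 5.62 with siZIP7_1 and 854 ± 75.6 with siZIP7_2 (SD, n = 3). Among the MMPs, MMP14 made up 92.1% ± 0.674 of the sum with siNC, 50.7% ± 3.32 with siZIP7_1 and 64.4% ± 1.90 with siZIP7_2 (SD, n = 3). MMP1 made up nearly all of the rest, 49.0% with siZIP7_1 and 34.3% with siZIP7_2.

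Ratios of these levels were also taken within each library. The ratio of the MMP sum to the TIMP sum ranged from 0.920 to 1.06 with siNC, from 0.540 to 0.596 with siZIP7_1 and from 1.16 to 1.35 with siZIP7_2. The groups did not overlap, though an exact permutation test of 3 libraries against 3 cannot go below p = 0.10 and none was run. The ratio of PLAU to PLAUR, enzyme to receptor, was 11.6 ± 0.386 with siNC and 11.8 ± 0.362 with siZIP7_1, and the libraries of these groups overlapped. With siZIP7_2 it was 2.62 ± 0.216 (SD, n = 3 each). PLAU to PLAT, the ratio of the activators, was 9.89 ± 0.682 with siNC, 9.31 ± 0.652 with siZIP7_1 and 1.35 ± 0.0715 with siZIP7_2. All of these are ratios of RNA levels and were not measured for protein.

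**Figure D3:**
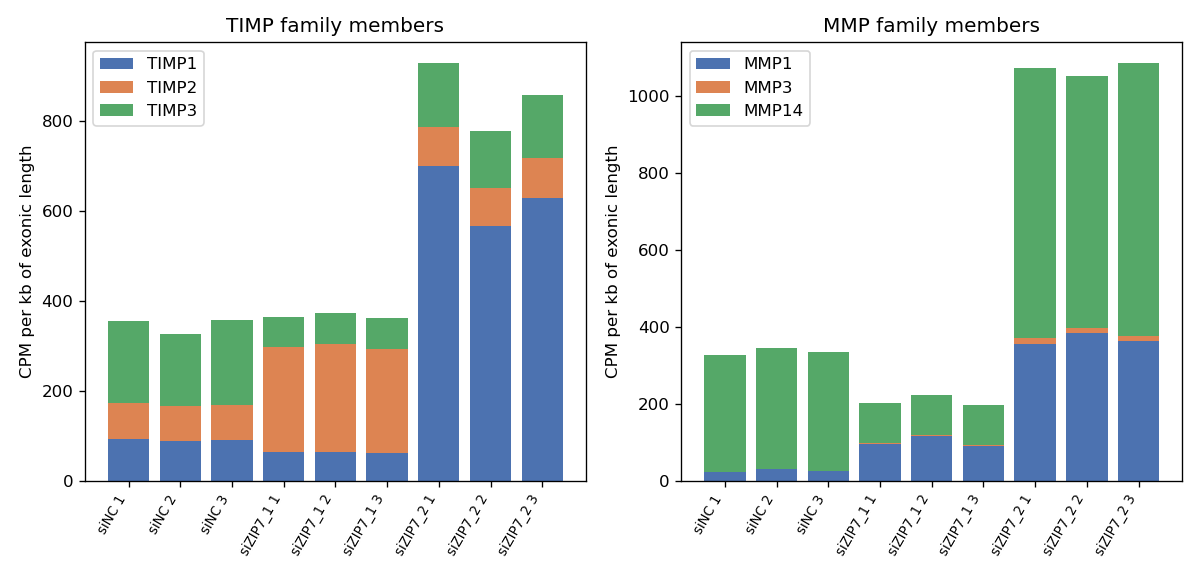
Stacked levels of the TIMP genes (left) and MMP genes (right) in CPM per kb of exonic length in each of the 9 libraries, on linear axes that start at 0. The leading TIMP is TIMP3 with siNC, TIMP2 with siZIP7_1 and TIMP1 with siZIP7_2, and MMP1 takes a larger part of the MMP stack with either ZIP7 siRNA than with siNC.

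The patterns most like each gene were found by the root mean square difference over the 9 libraries of log2 CPM less the siNC mean, among the 13735 genes that averaged 1 CPM or more. The closest pair was TIMP2 with SAV1 (0.0467), followed by TIMP3 with DSG2 (0.0594), PLAU with HIPK2 (0.0775) and MMP14 with SH3KBP1 (0.0923). PLAT was closest to TFPI2 (0.128), TIMP1 to AMPD3 (0.128) and PLAUR to FAM225B (0.154). MMP1 was closest to HIST1H4H (0.241) and MMP3 to SNORD3A (0.284). No member of the 9 was among the 3 genes closest to another. This measure describes likeness over 3 groups, which many genes share.

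The other genes of these pathways were taken as lists. Of the 20 other matrix metalloproteases, 10 were tested. With siZIP7_1, 4 rose and 4 fell, and with siZIP7_2, 6 rose and 3 fell. A gene can pass the low-count filter through the group where it is high, which favours a call of higher there. At least MMP10 and MMP25 did so with siZIP7_2. MMP25 was named after its values were seen, with 6, 1 and 1 reads with siNC and 15, 15 and 13 with siZIP7_2. This holds for the lists and marker lists below as well, and no conclusion is drawn from their counts of higher genes. MMP9, or gelatinase B, had 46 reads over the siNC libraries, 6 over siZIP7_1 and 965 over siZIP7_2. By summed reads it was 8.59-fold lower with siZIP7_1 (95% exact counting interval 3.66 to 24.6) and 20.1-fold higher with siZIP7_2 (15.0 to 27.7). MMP2, or gelatinase A, the protease that MMP14 and TIMP2 activate together, was at 2.90, 2.92 and 3.06 CPM with siNC. It had 234 reads over the siNC libraries, 5 over siZIP7_1 and 107 over siZIP7_2, and was 52.5-fold lower with siZIP7_1 (22.2 to 163) and 2.28-fold lower with siZIP7_2 (1.804 to 2.89). The siZIP7_1 reads were 4, 1 and 0 in replicates 1, 2 and 3, so the size of that fall rests mostly on replicate 1. MMP16, another membrane-type MMP, fell with both, from 10.9 ± 1.85 CPM with siNC to 3.41 ± 0.416 with siZIP7_1 and 2.66 ± 0.530 with siZIP7_2 (SD, n = 3).

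The other inhibitors were tested as well, 3 of 3. With siZIP7_1 all 3 fell, and with siZIP7_2, 1 rose, 1 fell and 1 did not pass. TIMP4 stood at 3.74 ± 0.390 CPM with siNC, 0.412 ± 0.119 with siZIP7_1 and 1.69 ± 0.150 with siZIP7_2 (SD, n = 3), a decrease with both. RECK, a membrane-anchored inhibitor of MMPs, was at 9.55, 7.93 and 15.4 CPM on average in the same order. It fell by 0.27 on the log2 scale with siZIP7_1 (adjusted p = 0.0102, edgeR) and rose by 0.69 with siZIP7_2 (adjusted p = 2.40e-08, edgeR). The fall of RECK rested on siNC replicate 1, without which it was -0.19 (adjusted p = 0.102, edgeR). A2M, a circulating protease trap and the third of the list, was the gene that did not pass with siZIP7_2 (log2 -0.49). Its siNC libraries stood at 1.56, 0.430 and 2.28 CPM and its siZIP7_2 libraries at 1.67, 0.592 and 0.923 CPM. These overlapped, so that value rests on single libraries and no direction is read from it. A2M was named after its values were seen.

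Of 17 other plasminogen system genes, 11 were tested. With siZIP7_1, 3 rose, 3 fell and 5 did not pass, and with siZIP7_2, 8 rose and 3 fell. Its median log2 values were -0.16 and 0.99, against -0.01 and 0.00 over all tested genes. The 0.99 is the value of SERPINF2, with 7, 9 and 12 reads in the siNC libraries. It had 16, 20 and 32 reads with siZIP7_1 and 27, 16 and 15 with siZIP7_2, and passed the low-count filter through these libraries. KLKB1, with 3, 6 and 8 reads with siNC and 17, 24 and 13 with siZIP7_2, passed the low-count filter through siZIP7_2. Selection of this kind favours higher medians, so no conclusion is drawn from them. Both genes were named after their values were seen. LRP1, an endocytic receptor that clears complexes of proteases with their inhibitors, rose with both. It stood at 66.8, 73.5 and 69.2 CPM with siNC, 193, 154 and 161 CPM with siZIP7_1 and 156, 146 and 165 CPM with siZIP7_2. LRP1 was 2.43-fold higher with siZIP7_1 (adjusted p = 9.79e-17, edgeR) and 2.23-fold higher with siZIP7_2 (adjusted p = 8.24e-16, edgeR), and the libraries of the ZIP7 siRNAs overlapped.

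A pair of serpins that inhibit plasminogen activators was named by the same rule. SERPINB2, or PAI-2, rose with both, from 2.19 ± 0.117 CPM with siNC to 3.40 ± 0.257 with siZIP7_1 and 36.4 ± 4.50 with siZIP7_2 (SD, n = 3). SERPINE2, or protease nexin-1, was at 42.2 ± 0.948 CPM with siNC and 37.9 ± 2.09 with siZIP7_1, which did not pass (adjusted p = 0.121, edgeR) but did without siZIP7_1 replicate 2 (adjusted p = 0.0462) or siZIP7_2 replicate 2 (adjusted p = 0.039), and rose to 236 ± 44.9 CPM with siZIP7_2. MRC2, an endocytic collagen receptor that associates with PLAUR, had the order of PLAUR and PLAT: 85.4 ± 2.72 CPM with siNC, 13.2 ± 0.562 with siZIP7_1 and 208 ± 16.7 with siZIP7_2. PLG, which encodes plasminogen itself and is made mainly in liver, was among the 6 genes of the list that did not pass the low-count filter.

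**Figure D4:**
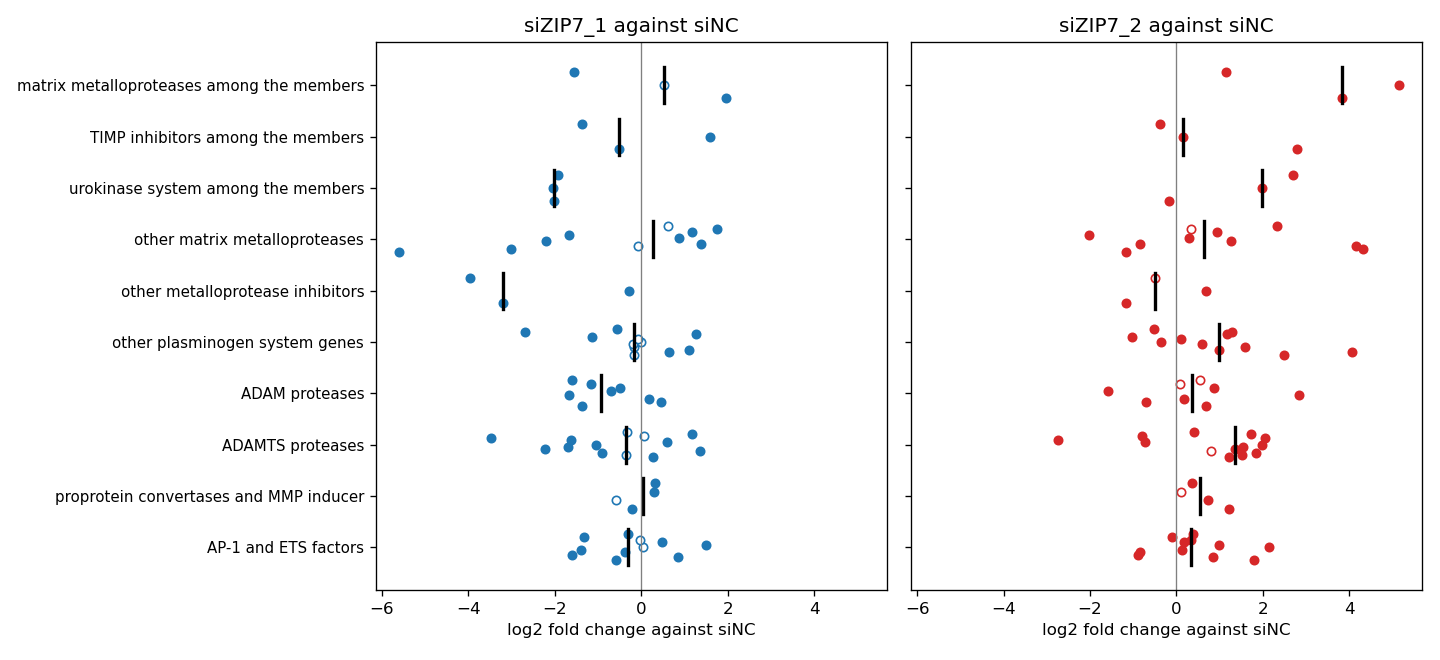
Log2 fold change against siNC of each tested gene of the protease, inhibitor and factor lists with siZIP7_1 (left) and siZIP7_2 (right). Filled points passed at an adjusted p under 0.05, open points did not, and black lines are list medians. The 3 urokinase system genes all lie left of 0 with siZIP7_1, and 8 of 11 other plasminogen system genes lie right of 0 and passed with siZIP7_2. Of these 8, KLKB1 passed the low-count filter through siZIP7_2 and SERPINF2 through the libraries of the ZIP7 siRNAs.

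The ADAM and ADAMTS families are metalloproteases that shed membrane proteins or process proteoglycans and procollagens, and several are bound by TIMP3. Of the 13 ADAM genes listed 8 were tested: 2 rose and 6 fell with siZIP7_1, and 4 rose and 2 fell with siZIP7_2. ADAM12 was at 3.39 ± 0.705, 1.06 ± 0.175 and 24.1 ± 1.73 CPM with siNC, siZIP7_1 and siZIP7_2 (SD, n = 3). ADAM8 followed the same order at 202, 77.7 and 325 CPM. ADAM15 fell with both, from 281 ± 9.86 to 174 ± 5.09 and 94.1 ± 0.981 CPM. ADAM19 fell 2.24-fold with siZIP7_1, and with siZIP7_2 its libraries overlapped those of siNC (log2 0.08, adjusted p = 0.143, edgeR). ADAM19 passed there with upper-quartile normalization (log2 0.18, adjusted p = 5.93e-04, edgeR) and without siZIP7_2 replicate 2 (log2 0.12, adjusted p = 0.0299, edgeR).

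Of 19 ADAMTS genes 13 were tested, with 4 higher and 6 lower with siZIP7_1 and 9 higher and 3 lower with siZIP7_2. ADAMTS6 was at 27.8 ± 0.208, 5.96 ± 0.321 and 71.3 ± 8.44 CPM with siNC, siZIP7_1 and siZIP7_2 (SD, n = 3). ADAMTS14, which processes procollagen, had 83, 8 and 359 reads in these groups, 11.6-fold lower with siZIP7_1 (95% exact counting interval 5.64 to 27.8) and 4.15-fold higher with siZIP7_2 (3.26 to 5.34). ADAMTS9 averaged 3.19, 1.56 and 12.5 CPM and ADAMTS3, another procollagen protease, 3.13, 1.64 and 11.3 CPM. All 4 were lowest with siZIP7_1 and highest with siZIP7_2, with no overlap of groups. The naming rule picked them for large changes, and the other tested genes, named after their values were seen, were mixed. ADAMTS7 had the same order and ADAMTS12 the reverse. ADAMTS1 and ADAMTS16 rose with both and ADAMTS13 fell with both. ADAMTS2, ADAMTS5, ADAMTS15 and ADAMTS17 each passed against siNC with a single siRNA. ADAMTS2 had 11, 3 and 9 reads with siNC and 10, 33 and 26 with siZIP7_2, where it was called higher. ADAMTS5 had 4, 3 and 5 reads with siNC and 11, 7 and 17 with siZIP7_1, where it was called higher. ADAMTS2 and ADAMTS5 passed the low-count filter through ZIP7 siRNA libraries, which favours these calls, and no support is drawn from them.

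Furin-type proprotein convertases remove the propeptide of membrane-type MMPs, and BSG (CD147) is known as an inducer of MMPs. Of these 5 genes 4 were tested: 2 rose and 1 fell with siZIP7_1, and 3 rose with siZIP7_2. FURIN averaged 166, 143 and 384 CPM with siNC, siZIP7_1 and siZIP7_2, a 1.16-fold decrease and a 2.31-fold increase. BSG rose 1.25-fold and 1.27-fold, with no overlap with siNC. PCSK5 rose with siZIP7_2 from 0.909 ± 0.297 to 1.50 ± 0.245 CPM (SD, n = 3). Without siNC replicate 3, PCSK5 no longer passed there (log2 0.47, adjusted p = 0.0981, edgeR) and passed with siZIP7_1 (log2 -0.84, adjusted p = 0.0138, edgeR). PCSK7 passed with siZIP7_1 (log2 0.29, adjusted p = 8.82e-04, edgeR) although its libraries overlapped those of siNC.

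All 11 AP-1 and ETS factors listed were tested: 3 rose and 6 fell with siZIP7_1, and 8 rose and 3 fell with siZIP7_2. FOSL1 (FRA-1) stood at 574, 576 and 535 CPM with siNC, 181, 187 and 189.9 CPM with siZIP7_1 and 298, 313 and 303 CPM with siZIP7_2. It fell 3.02-fold and 1.84-fold. JUNB averaged 80.9 CPM with siNC and 83.7 CPM with siZIP7_1, which did not pass (adjusted p = 0.444, edgeR), and rose 4.40-fold with siZIP7_2 to 356 ± 31.9 CPM (SD, n = 3). FOS was at 5.48 ± 1.41, 3.60 ± 0.382 and 18.7 ± 0.451 CPM, and JUND rose with both, from 108 to 303 and 212 CPM. RNA levels of these factors say nothing of their activity, and their part in the results above was not tested.

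Markers of other cell types were read in the same libraries. Of 3 leukocyte genes (PTPRC, CD3E and CD14) 2 were tested, and the 3 together came to 1.68 to 2.87 CPM in the siNC libraries, 1.31 to 1.60 CPM in those of siZIP7_1 and 9.08 to 12.2 CPM in those of siZIP7_2. CD14 was the most abundant with siNC and siZIP7_2 (1.81 and 10.01 CPM on average) and PTPRC with siZIP7_1 (0.875 CPM), while CD3E had no reads in any siZIP7_1 or siZIP7_2 library. With siZIP7_1 PTPRC rose and CD14 fell, and with siZIP7_2 CD14 rose and PTPRC did not pass (adjusted p = 0.460, edgeR). The 4 endothelial genes, all tested, summed to between 6.86 and 7.51, 7.47 and 9.32, and 12.8 and 14.3 CPM. With siZIP7_1 2 of the 4 rose, 1 fell and 1 did not pass, and with siZIP7_2 2 rose and 2 did not pass. KDR led with siNC and siZIP7_1 (3.78 and 7.94 CPM on average) and rose with siZIP7_1, while with siZIP7_2 it averaged 3.11 CPM and did not pass (adjusted p = 0.0743, edgeR). PECAM1 led with siZIP7_2, where it was 2.85-fold higher than with siNC at 8.63 CPM, and fell with siZIP7_1, from 3.02 to 0.102 CPM on average (adjusted p = 5.64e-15, edgeR). CDH5 was higher than with siNC with both siRNAs (adjusted p = 0.00829 for siZIP7_1 and 1.26e-10 for siZIP7_2, edgeR) and averaged 0.0119, 0.135 and 1.27 CPM, with ranges that overlapped between siNC and siZIP7_1. Its reads were 0, 0 and 1 with siNC, 5, 1 and 6 with siZIP7_1 and 31, 41 and 33 with siZIP7_2. CDH5 thus passed the low-count filter through siZIP7_2, and no support is drawn from its calls. TEK averaged 0.316, 0.182 and 0.511 CPM and passed against siNC with neither siRNA. Of 6 fibroblast genes 3 were tested, and the list summed to between 53.2 and 59.5, 111 and 118, and 180 and 204 CPM. COL1A1 made up most of the sum, at 54.3, 112 and 185 CPM on average. With siZIP7_1 2 of the 3 tested rose and 1 did not pass, and with siZIP7_2 all 3 rose. COL3A1 averaged 0.113 CPM with siNC, 0.0462 CPM with siZIP7_1, where it did not pass, and 6.53 CPM with siZIP7_2 (adjusted p = 3.01e-17, edgeR). Its reads were 5, 2 and 2, then 2, 1 and 1, then 197, 162 and 172 in these groups. COL3A1 thus passed the low-count filter through siZIP7_2, which favours that call, and no support is drawn from it. LUM averaged 1.18, 2.72 and 1.75 CPM, 2.29-fold higher with siZIP7_1 and 1.47-fold higher with siZIP7_2. The other genes of the list, which were not tested, averaged 0.111, 0.0469 and 0.0478 CPM for COL1A2, 0.0502, 0 and 0.0239 CPM for DCN, and 0.197, 0.0674 and 0.444 CPM for PDGFRA.

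Of the mesenchymal markers of the line, all 4 tested, 1 rose and 3 fell with siZIP7_1 and 2 rose and 2 fell with siZIP7_2. VIM led and averaged 5529, 2687 and 2896 CPM, and AXL fell with both. CD44 averaged 816, 465 and 1793 CPM and SPARC 0.459, 1.52 and 4.52 CPM. Of 8 luminal and receptor genes 7 were tested, with 6 higher and 1 lower with siZIP7_1 and 2 higher and 5 lower with siZIP7_2. ESR1, counted as higher with both, had 3, 2 and 2 reads with siNC and passed the low-count filter through siZIP7_2. KRT18 led with siNC and siZIP7_2 and KRT8 with siZIP7_1. KRT18 averaged 247, 371 and 189 CPM, KRT8 averaged 204, 498 and 184 CPM, and CDH1 averaged 0.466, 4.18 and 0.998 CPM. The share of reads that fell on no counted feature was 7.43% to 8.28% with siNC, 7.80% to 9.62% with siZIP7_1 and 9.995% to 11.5% with siZIP7_2. The part of these differences, and of those in the leukocyte, endothelial and fibroblast genes, in the results was not tested.

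Some genes share exonic sequence with a neighbour, and strand-specific counting was not stated. The antisense gene C10orf55 overlaps 31.1% of PLAU's exonic length and averaged 7.55, 5.05 and 11.0 CPM. WTAPP1, antisense to MMP1 and MMP3, overlaps 7.61% and 1.56% of their exonic lengths and averaged 0.150, 0.734 and 1.84 CPM. The 2 genes overlapping TIMP2 cover 10% of its exonic length. AC022966.1, on the opposite strand, averaged 0.450, 1.96 and 0.910 CPM with siNC, siZIP7_1 and siZIP7_2. CEP295NL, on the strand of TIMP2, averaged 0.289, 0.491 and 0.656 CPM. Reads from a gene and an antisense partner cannot be told apart without strand, and strand does not separate a partner on the same strand.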

How the data were processed

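RNA-seq of MDA-MB-231 was deposited by the authors as raw counts of single reads per Ensembl gene, without normalization. The submitters' processing notes name Trim Galore 0.4.1, FastQC 0.11.2, STAR, HTSeq 0.6.1 and DESeq2 1.16.1. The genome build, annotation and strand setting are not given in the sources used here. The counting summary lines, which hold 7.43% to 11.5% (no feature) and 2.67% to 2.91% (ambiguous) of the reads summed with those on genes, were left out. Of 58395 identifiers, 58275 were in GENCODE 29 (GRCh38), which gave symbols, positions and exonic lengths.

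Counts were analysed with edgeR 4.0.16 in R 4.3.3 (TMM, low-count filter over the groups, quasi-likelihood test, Benjamini-Hochberg adjustment at 0.05) in 1 fit to all 9 libraries with 6 residual degrees of freedom. Log2 values in the fit carry the default prior count. SE is the size of the log2 fold change over the square root of F. Steps were tested on simulated data. Intervals and the floor of 3 counts cover counting error only, since no molecular identifiers were stated.

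Members and gene lists were chosen with earlier results of these data known. Genes named beyond the 9 were up to 4 of each list with the largest log2 fold change among those that passed and averaged at least 1 CPM, and the 3 genes most alike to each member, of which the nearest is printed. Other genes are named as such. A gene of the plasminogen list and a leukocyte marker are not reported here and were left out of the lists. Alternatives were DESeq2 1.42.0, its size factors, upper-quartile factors, dropping the low-count filter, a minimum of 10 counts in all libraries, a replicate block, a test against a 1.8-fold change, fits to the pair of groups, and each library left out.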

Additional observations from a re-analysis of the deposited data

Results flagged for a closer look

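Several genes passed the edgeR test (Benjamini-Hochberg adjustment) in opposite directions with the 2 ZIP7 siRNAs, and the contrast between the siRNAs passed for each as well. Over all tested genes 18.7% did so. Of the 9 genes these were 4, with log2 differences of siZIP7_2 against siZIP7_1 of 2.72 for MMP14, 3.32 for TIMP1, 4.02 for PLAUR and 4.62 for PLAT. Every library of siZIP7_1 lay below siNC and every library of siZIP7_2 above it for these 4.

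Of the 60 other protease, inhibitor and factor genes tested, 19 (31.7%) also passed in opposite directions. The order was reversed, higher with siZIP7_1 and lower with siZIP7_2 than with siNC, for 3 of them, MMP11, ADAM9 and ADAMTS12, which were named after their values were seen. Of the 19, 11 are among the 26 named, which the naming rule picked for their large changes, so no share is read from them. For those 11 the log2 differences were 7.34 for MMP9, 0.96 for RECK, 3.99 for MRC2, 4.50 for ADAM12 and 2.07 for ADAM8. They were 5.52 for ADAMTS14, 3.58 for ADAMTS6, 3.01 for ADAMTS9, 2.77 for ADAMTS3, 1.43 for FURIN and 2.37 for FOS. The values of MMP9 and ADAMTS14 rest on 6 and 8 reads over the siZIP7_1 libraries, so their fitted size depends on the prior count. The fall of RECK with siZIP7_1 did not pass without siNC replicate 1. The cause of the opposite directions was not tested.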

How the results depend on the processing

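Over the alternatives, 450 of 459 recomputed log2 fold changes of the 9 genes kept their direction and side of the threshold, 8 no longer passed, 1 newly passed and none changed sign. Tested against a 1.8-fold change (glmTreat in edgeR), the genes called fell from 11851, 13038 and 13187 to 2836, 4134 and 4725 for siZIP7_1 against siNC, siZIP7_2 against siNC and siZIP7_2 against siZIP7_1, since small changes no longer pass by construction. There TIMP1 lost its call with siZIP7_1, and TIMP2, TIMP3 and PLAU lost theirs with siZIP7_2. PLAU also lost its siZIP7_2 call with a minimum of 10 counts in all libraries (log2 -0.10, adjusted p = 0.0985, edgeR). Leaving out each library in turn gave 8 to 9, 8 to 9 and 9 of the 9 genes called. MMP10 with siZIP7_1 changed sign, from -0.60 to 0.21 when libraries were left out, at 15 and 16 reads, and BSG between the ZIP7 siRNAs was -0.0169 without the low-count filter. Neither passed, and the cause was not tested. Over SLC39A7 and the 26 other named genes, 1302 of 1361 recomputed values kept direction and side of the threshold, 30 no longer passed and 25 newly passed. Of the 30, 21 came from the 1.8-fold test, 7 from PCSK7 between the ZIP7 siRNAs, and the others were RECK and PCSK5 as given above. The 25 were values of MMP16, SERPINE2, LRP1, ADAM19, PCSK5, BSG and PCSK7 with log2 values under 1 in size.

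Deviations of same-numbered libraries from their group means correlated at 0.0115 on average (-0.0493 to 0.0754), against -0.00579 for different numbers. No shared deviation was thus seen. This cannot show that same-numbered samples were handled separately, and the labels do not say. With a replicate block 8, 9 and 9 of the 9 genes and 11927, 13080 and 13242 genes overall were called. Depth limited MMP3, MMP9, MMP10 and MMP2, where 3 reads come to between 0.0941 and 0.129 CPM.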
